A study of Homo sapiens with 4 samples.

Results

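The collagen gene family was followed in NCI-H1048, an established small cell lung cancer cell line of the tuft cell-like kind. The family was taken as every gene symbol made of the letters COL, a number, the letter A and a number, with rows of one symbol summed. The pattern matched 44 of the 35979 symbols in the deposited tables. Of these 44 genes, 32 had a mean of at least 20 normalized counts over the 4 libraries, as did 14940 of all symbols. The other 12 lay under that minimum, and 4 of them reached 20 in at least 1 library.

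Poly(A) RNA was sequenced from cells that received a guide RNA against COLCA2, a guide RNA against POU2F3 or a non-targeting guide RNA. The labels give the genotypes as COLCA2 knockout for 2 libraries made with different guides (COLCA2 gRNA 1 and COLCA2 gRNA 2), POU2F3 knockout for 1 library (POU2F3 gRNA) and WT for 1 library (non-targeting gRNA), with no further treatment. They are called below the COLCA2 guide 1, COLCA2 guide 2, POU2F3 guide and control libraries. All 4 libraries therefore share the cell line and the exposure to a guide RNA. Whether each library came from a clone or a mixed population, and how long after the guide it was made, is not given in the sources used here. POU2F3 is the transcription factor that marks the tuft cell lineage, and COLCA2 is named in the title of the series as its transcriptional co-activator, so the comparisons ask how expression differs in cells given a guide against either gene. Despite its symbol, COLCA2 is not a collagen gene.

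Collagens are extracellular matrix proteins whose chains wind around each other into a helix and then assemble into fibrils, sheets or filaments. Fibrillar collagens build the ropes of connective tissue and cartilage, the fibril-associated collagens with interrupted helices (FACITs) decorate the surface of those ropes, and type IV collagens form the mesh of basement membranes on which epithelial cells sit. Type VI forms beaded filaments, multiplexins (types XV and XVIII) link basement membranes to the tissue below, and transmembrane collagens such as type XVII hold epithelial cells to the matrix. Chains are hydroxylated, folded and exported by dedicated enzymes and chaperones, trimmed and cross-linked outside the cell, read by integrin and discoidin receptors and cut by collagenases.

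The libraries held 24668649 reads in genes under COLCA2 guide 1, 21587741 under COLCA2 guide 2, 29632382 under the POU2F3 guide and 25435970 in the control library. A normalized count is the number of reads assigned to a gene divided by 1 factor per library, so it can be compared between libraries for a gene. Levels of different genes are compared below per kilobase of the longest annotated protein-coding transcript. Sums over genes and shares of the family sum are the exception, and longer transcripts weigh more in them. POU2F3 itself had normalized counts of 14602 in the control library, 1449 under the POU2F3 guide, 3677 under COLCA2 guide 1 and 2351 under COLCA2 guide 2, and COLCA2 had 5585 in the control library, 1393 under the POU2F3 guide, 3119 under COLCA2 guide 1 and 3541 under COLCA2 guide 2. COLCA2 mRNA thus stood at 55.8% and 63.4% of the control level in the 2 libraries labelled COLCA2 knockout, and at 24.9% under the POU2F3 guide, where it was lowest. COLCA2 overlaps an antisense gene, and the counting's use of strand is not given in the sources used here. Of 7 tuft-like markers 6 passed the minimum, POU2F3 itself among them. Under the POU2F3 guide 6 were at least 2-fold lower, beside 3.05% of all genes over the minimum. Under both COLCA2 guides 5 were, beside 2.02%. The taste-cell channel TRPM5 had at most 2.35 normalized counts in any library. In bulk RNA, fewer cells of a type and less RNA per cell cannot be told apart.

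The collagen mRNA of the cells differed in both directions from the control library. COL2A1, the chain of cartilage-type fibrils, was the highest collagen per kilobase of transcript in the control library and stood at 22.3 to 28.7% of that level in the other 3 libraries, while COL12A1, COL17A1, COL9A1, COL22A1, COL3A1, COL5A1, COL16A1, COL5A2 and COL19A1 were higher. Under the POU2F3 guide, 9 of the 32 collagens (28.1%) were at least 2-fold higher, beside 6.73% of all 14940 genes, and 2 (6.25%) were at least 2-fold lower, beside 3.05%. Under both COLCA2 guides, 9 of 32 (28.1%) were at least 2-fold higher, beside 5.79% of all genes, and 2 (6.25%) were at least 2-fold lower, beside 2.02%. With COLCA2 guide 2 alone the lower collagens numbered 4, COL4A3 and COL9A2 joining COL2A1 and COL11A1. Both comparisons use the same single control library, so a deviation of that library enters both. No test can be made on 1 library against 1, so a call here is a size, taken on log2(normalized count + 1), which understates the ratio of low genes.

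Values per gene are given below in the order COLCA2 guide 1, COLCA2 guide 2, POU2F3 guide and control, and intervals on a ratio are exact 95% intervals that cover counting error only. The minimum of 20 was met by COL9A1, COL16A1, COL22A1 and COL24A1 only through the libraries with a targeting guide, since each was under 20 in the control library, so these 4 had to be higher to be counted. COL11A1 and COL28A1 were under 20 in 1 targeted library or more. The median log2 ratio of the 32 collagens was 0.36 under the POU2F3 guide and 0.46 for the mean of the COLCA2 guides, beside -0.0037 and -0.0086 for all 14940 genes. Restricted to the 28 collagens that reached 20 in the control library, the medians were 0.28 and 0.31, beside -0.014 and -0.022 over all genes held to the same rule. Of these 28 collagens, 6 (21.4%) were at least 2-fold higher under the POU2F3 guide, beside 4.99% of the 14511 genes that reached 20 there, and 6 (21.4%) under both COLCA2 guides, beside 4.25%. The 6 were COL3A1, COL5A1, COL5A2, COL12A1, COL17A1 and COL19A1 in both comparisons, and this restriction was chosen after seeing the data.

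**Figure D1:**
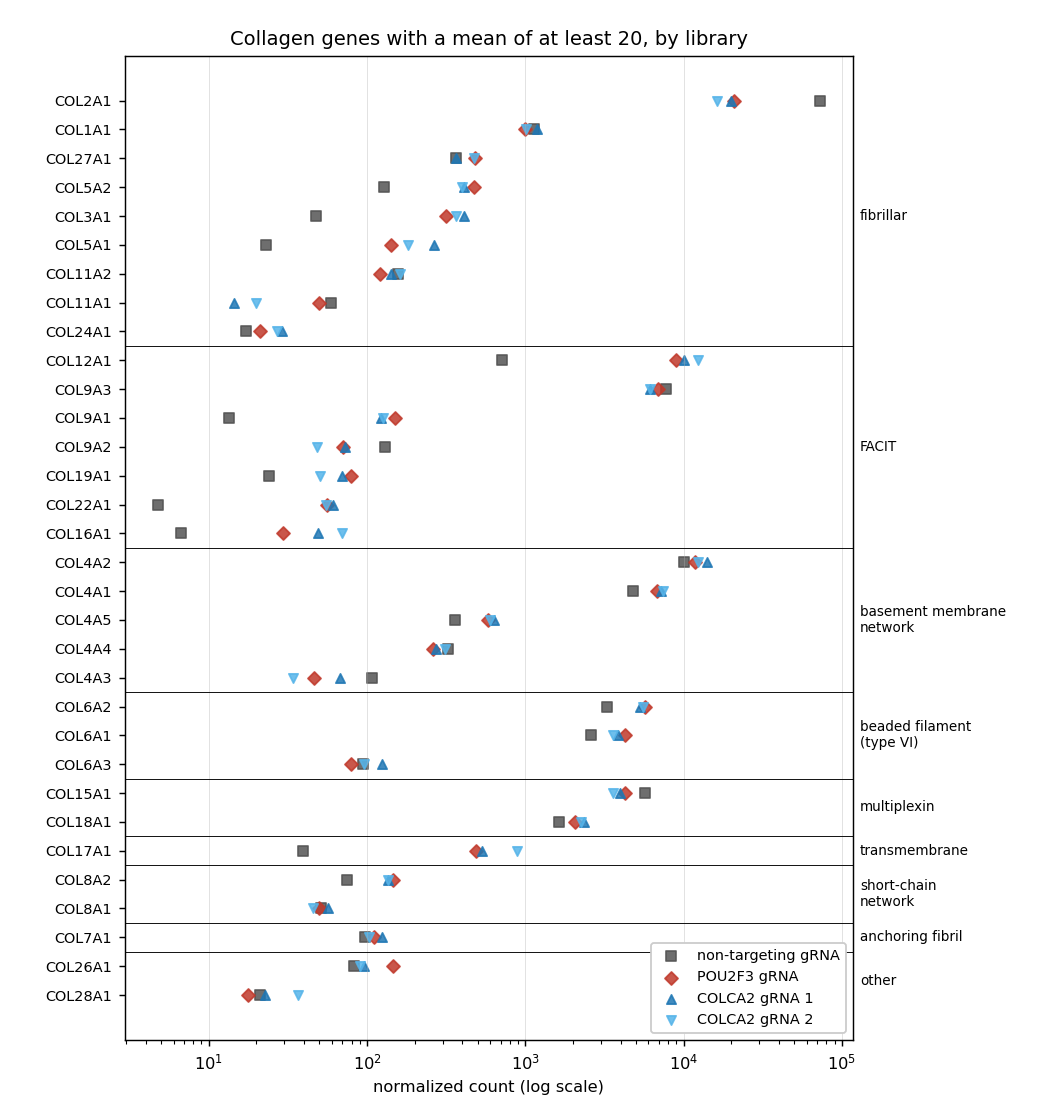
Normalized counts (x axis, log scale) of the 32 collagen genes with a mean of at least 20, by protein type, with 1 symbol per library (non-targeting gRNA is the control). COL2A1 sits at 72484 in the control library and between 16159 and 20815 in the other 3, and COL12A1 at 710 against 9010 to 12316.

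The edgeR quasi-likelihood test on the recovered reads gave a second reading of the same tables. It takes its spread between libraries from the 2 COLCA2 guides alone (1 residual degree of freedom), so for the POU2F3 guide and the control guide it compares libraries and not conditions. At an edgeR adjusted p under 0.05, 11 of the 32 collagens were higher under the POU2F3 guide, beside 8.45% of all genes, and 1 was lower, beside 3.98%. For the COLCA2 guides it called 14 higher, beside 11.4% of all genes, and 4 lower, beside 7.51%. COL9A1 and COL22A1, called higher in both comparisons, and COL16A1, called for the COLCA2 guides, were under 20 in the control library. They had to be higher to be counted at all. Several of the edgeR calls are collagens with small ratios at high depth, such as COL4A1, COL6A1 and COL6A2, which the 2-fold rule leaves out. In the other direction, COL19A1 was called by the 2-fold rule in both comparisons and by edgeR in neither.

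Among the fibrillar collagens, the cartilage-type chain COL2A1 and the chains of types III and V differed in opposite directions. Of 11 fibrillar genes, 9 passed the minimum. Under the POU2F3 guide 3 of these were at least 2-fold higher, beside 6.73% of all genes, and 1 was lower, beside 3.05%. Under both COLCA2 guides 3 were higher, beside 5.79%, and 2 were lower, beside 2.02%. COL2A1 (chr12:47972965-48004554, minus strand in GRCh38) encodes the sole chain of type II collagen, the main fibril of cartilage. It had normalized counts of 72484 in the control library, 20815 under the POU2F3 guide, 19853 under COLCA2 guide 1 and 16159 under COLCA2 guide 2. The control library stood apart from the other 3, which lay close together. It reached 28.7% of the control level under the POU2F3 guide (28.3 to 29.1%), 27.4% under COLCA2 guide 1 and 22.3% under COLCA2 guide 2, which are log2 ratios of -1.80 under the POU2F3 guide and -2.02 ± 0.21 (SD, n = 2) over the COLCA2 guides. The edgeR adjusted p was 5.4e-04 for the POU2F3 guide and 1.1e-04 for the COLCA2 guides.

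COL3A1 (chr2:188974320-189012746, plus strand) encodes the chain of type III collagen, found with type I in skin, vessels and scars. Its normalized counts were 47.7 in the control library, 317 under the POU2F3 guide, 412 under COLCA2 guide 1 and 363 under COLCA2 guide 2. All 3 targeted libraries lay above the control one, at 6.64-fold (4.94 to 9.11) the level under the POU2F3 guide, 8.62-fold (6.41 to 11.8) under COLCA2 guide 1 and 7.61-fold (5.63 to 10.5) under COLCA2 guide 2. The log2 ratios were 2.71 under the POU2F3 guide and 2.99 ± 0.13 (SD, n = 2) over the COLCA2 guides, with edgeR adjusted p of 9.2e-04 and 3.4e-04.

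COL5A1 (chr9:134641774-134844843, plus strand) and COL5A2 (chr2:189031896-189225312, minus strand) encode chains of type V collagen, which starts and limits the growth of type I fibrils. COL5A1 had normalized counts of 22.9 in the control library, 142 under the POU2F3 guide, 264 under COLCA2 guide 1 and 182 under COLCA2 guide 2. This placed it at 6.19-fold (4.02 to 9.93) the control level under the POU2F3 guide, 11.5-fold (7.58 to 18.3) under COLCA2 guide 1 and 7.95-fold (5.15 to 12.8) under COLCA2 guide 2, and the ratio was highest under COLCA2 guide 1. COL5A2, which lies beside COL3A1 on chromosome 2, had 129 in the control library, 476 under the POU2F3 guide, 411 under COLCA2 guide 1 and 398 under COLCA2 guide 2. Its ratios were smaller than those of COL5A1 and nearly equal over the 3 libraries, at log2 1.88 under the POU2F3 guide and 1.64 ± 0.03 (SD, n = 2) over the COLCA2 guides. In edgeR the adjusted p was 0.0083 and 0.0019 for COL5A1 and 0.0015 and 0.0015 for COL5A2, for the POU2F3 guide and the COLCA2 guides in turn.

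COL11A1 had the largest difference between the POU2F3 and COLCA2 libraries among the 32 collagens, on low counts. It encodes a chain of type XI collagen, the partner of type II in cartilage fibrils, and had normalized counts of 59.2 in the control library, 49.5 under the POU2F3 guide, 14.5 under COLCA2 guide 1 and 19.99 under COLCA2 guide 2. The POU2F3 library lay near the control one and both COLCA2 libraries lay below them, at 24.5% (12.7 to 44.3%) and 33.8% (18.5 to 58.5%) of the control level, with an edgeR adjusted p of 0.035 for the COLCA2 guides. COL11A1 was the 1 of 32 collagens (3.13%) at least 2-fold apart between the POU2F3 guide and both COLCA2 guides, beside 1.37% of all genes. A single call is near that share. COL11A1 reached 20 only in the control and POU2F3 libraries, and its COLCA2 values rest on 14 and 17 reads. The call was lost with a pseudocount of 10 and with a minimum of 100. Its edgeR adjusted p for that difference was 0.23, and edgeR called 0 collagens there, beside 0.341% of all genes, with 2 collagens, COL11A1 and COL12A1, under an unadjusted p of 0.05 among 2038 such genes. Against COLCA2 guide 2 alone 3 collagens were at least 2-fold apart, COL16A1 and COL28A1 being the others, both lower under the POU2F3 guide. None of the 32 collagens over the minimum was 2-fold or more apart between the COLCA2 guides, beside 2.22% of all genes.

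The other fibrillar genes over the minimum were within 2-fold of the control in every library. COL1A1, the chain that makes up most of type I collagen, had 1186, 1008, 1002 and 1136, without a separation of the groups. COL27A1, a fibrillar chain of growing cartilage, had 365, 475, 481 and 368. COL11A2 had 141, 161, 122 and 157 as a sum of 7 rows that carry this symbol. Single rows held reads in 1 library and none in another, so the sum is given here. COL24A1, a minor fibrillar chain, had 29, 27, 21 and 17.2. COL1A2, the other type I chain, stayed under the minimum with 23.8, 18.8, 12.6 and 10.5.

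**Figure D2:**
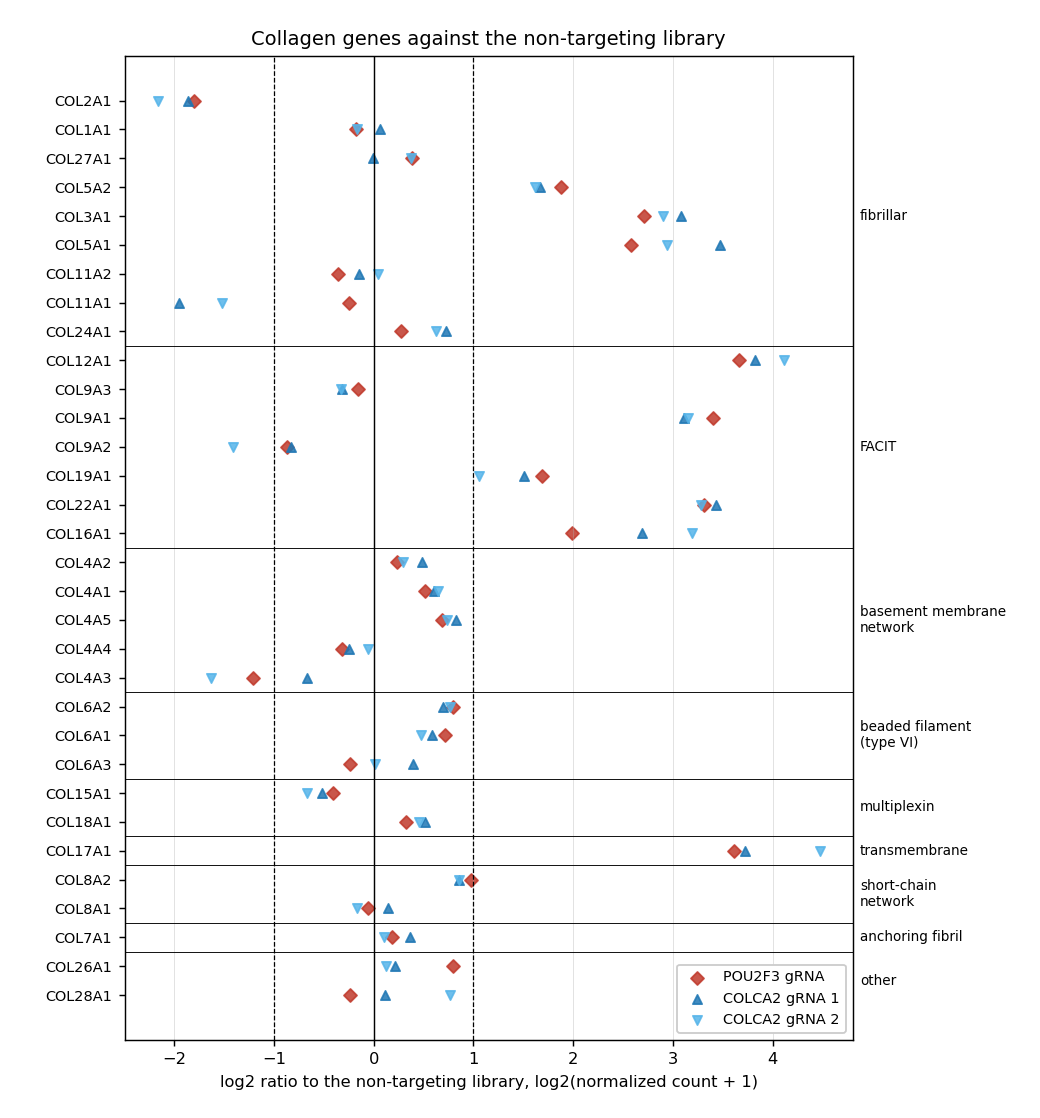
Log2 ratio of each collagen to the control library on log2(normalized count + 1), by protein type, for the POU2F3 guide and the 2 COLCA2 guides, with dashed lines at 2-fold. The 3 symbols of COL12A1 lie between 3.66 and 4.11, those of COL2A1 between -2.17 and -1.80, and COL11A1 has its POU2F3 symbol at -0.25 and its COLCA2 symbols at -1.96 and -1.52.

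Of the 10 FACIT genes 7 passed the minimum, and 5 of the 7 were at least 2-fold higher under the POU2F3 guide, as were 5 under both COLCA2 guides, beside 6.73% and 5.79% of all genes. Of the 5, COL9A1, COL16A1 and COL22A1 passed the minimum only through the targeted libraries, which leaves COL12A1 and COL19A1. None of the 7 was 2-fold lower in either comparison, beside 3.05% and 2.02% of all genes. COL12A1 (chr6:75084326-75206051, minus strand) encodes type XII collagen, which binds type I fibrils in tendon, skin and other loaded tissue. It had normalized counts of 710.5 in the control library, 9010 under the POU2F3 guide, 10065 under COLCA2 guide 1 and 12316 under COLCA2 guide 2. The 3 targeted libraries lay at 12.7-fold (11.8 to 13.7), 14.2-fold (13.1 to 15.3) and 17.3-fold (16.1 to 18.7) the control level for the POU2F3 guide, COLCA2 guide 1 and COLCA2 guide 2. The log2 ratios were 3.66 under the POU2F3 guide and 3.97 ± 0.21 (SD, n = 2) over the COLCA2 guides, and the edgeR adjusted p was 6.9e-05 and 3.6e-05. Per kilobase of transcript it had 859, 1051, 769 and 60.6 normalized counts, in the order of the libraries given above.

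Promoter windows were read for the collagens with an entry in the RefSeq promoter table of GRCh38.p14, which covered 32 of the 44 symbols with 44 windows of 300 bases, 250 before and 50 after a start site. COL2A1 was not among them. Each window was searched on both strands for short factor sites and promoter boxes, and the share of windows with a match was set beside that of all 35116 windows in the table. The octamer bound by POU factors, ATGCAAAT, was in 4.55% of the collagen windows and 1.77% of all windows, and its collagen matches were COL19A1 and COL23A1. The TEAD site, GGAATG, was in 6.82% of collagen windows and 14.0% of all. The AP-1 site, TGANTCA, was in 2.27% and 7.71%. The SOX site, ACAAAG, was in 15.9% and 16.1%, and the GC box, GGGCGG, was in 54.5% and 45.0%. CCAAT was in 31.8% and 34.6%, and TATAAA was in 18.2% and 11.5%. A match of letters is a description and shows no bound factor. The stretch before the RefSeq start of COL12A1, the highest of the higher collagens per kilobase, is shown outside annotated exons (chr6:75206054-75206303, minus strand, 5′ to 3′), with its TEAD letters in capitals.
COL12A1: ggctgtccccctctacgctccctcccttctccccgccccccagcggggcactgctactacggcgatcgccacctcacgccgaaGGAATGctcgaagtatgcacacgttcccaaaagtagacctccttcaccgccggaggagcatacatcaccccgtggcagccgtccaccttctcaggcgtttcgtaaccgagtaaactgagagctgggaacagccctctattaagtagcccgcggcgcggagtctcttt

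COL9A1, COL9A2 and COL9A3 encode the chains of type IX collagen, which coats type II fibrils in cartilage, and they differed in direction. COL9A1 (chr6:70215061-70303083, minus strand) had normalized counts of 13.4 in the control library, 151 under the POU2F3 guide, 123 under COLCA2 guide 1 and 127 under COLCA2 guide 2, the control value resting on 14 reads. It stood at 11.3-fold (6.56 to 21.1) the control level under the POU2F3 guide, 9.23-fold (5.29 to 17.4) under COLCA2 guide 1 and 9.5-fold (5.42 to 18) under COLCA2 guide 2, with edgeR adjusted p of 0.0023 and 0.002 for the POU2F3 guide and the COLCA2 guides. COL9A2 had 72.6, 48.2, 70.5 and 129.9, highest in the control library and past 2-fold lower under COLCA2 guide 2 alone, with log2 ratios of -0.87 under the POU2F3 guide and -1.12 ± 0.41 (SD, n = 2) over the COLCA2 guides. COL9A3 had 6175, 6120, 6908 and 7692 and differed by less than 2-fold, with log2 ratios of -0.16 under the POU2F3 guide and -0.32 ± 0.01 (SD, n = 2) over the COLCA2 guides and edgeR adjusted p of 0.39 and 0.034.

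COL22A1, a collagen of tissue junctions such as muscle to tendon, had 4.77 in the control library, 56.2 under the POU2F3 guide, 61.2 under COLCA2 guide 1 and 55.3 under COLCA2 guide 2. The control value rests on 5 reads, and the ratios of 11.8-fold (4.8 to 37.5), 12.8-fold (5.19 to 40.9) and 11.6-fold (4.62 to 37.3) for the POU2F3 guide, COLCA2 guide 1 and COLCA2 guide 2 have wide counting intervals that lie above 2-fold, with edgeR adjusted p of 0.011 and 0.0064. COL16A1, a FACIT of skin and cartilage matrix, had 48.7, 69.4, 29.4 and 6.68, with 7 reads in the control library. Its ratio was 4.39-fold (1.92 to 11.7) under the POU2F3 guide, whose interval reaches under 2-fold, and 7.29-fold (3.27 to 19.1) and 10.4-fold (4.74 to 26.9) under the COLCA2 guides. The edgeR adjusted p for COL16A1 was 0.085 under the POU2F3 guide and 0.013 under the COLCA2 guides.

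COL19A1 (chr6:69866571-70209976, plus strand), a FACIT of basement membrane zones, had 23.9 in the control library, 78.9 under the POU2F3 guide, 69.5 under COLCA2 guide 1 and 50.6 under COLCA2 guide 2. Its ratios were 3.3-fold (2.11 to 5.36) under the POU2F3 guide, 2.91-fold (1.81 to 4.81) under COLCA2 guide 1 and 2.12-fold (1.26 to 3.62) under COLCA2 guide 2, and edgeR gave adjusted p of 0.069 and 0.089, past the threshold in neither. Its call for the COLCA2 guides was lost with a pseudocount of 10 and with libraries scaled to equal totals, which left 8 collagens higher under both. COL19A1 was 1 of the 2 collagens whose promoter window held the POU octamer, on the opposite strand. The exon-free stretch that holds it (chr6:69866306-69866470, plus strand) is shown with those letters in capitals.
COL19A1: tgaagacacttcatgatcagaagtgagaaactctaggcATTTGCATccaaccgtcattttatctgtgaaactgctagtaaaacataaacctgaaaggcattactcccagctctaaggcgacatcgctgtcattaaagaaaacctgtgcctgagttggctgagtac

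COL17A1 was the only transmembrane collagen of 4 to pass the minimum. It encodes type XVII collagen, a hemidesmosome protein that anchors basal epithelial cells to the basement membrane (chr10:104031286-104085957, minus strand). Normalized counts were 39.2 in the control library, 488 under the POU2F3 guide, 529.8 under COLCA2 guide 1 and 890.3 under COLCA2 guide 2. The 3 targeted libraries lay far above the control one, at 12.5-fold (9.08 to 17.6) under the POU2F3 guide, 13.5-fold (9.84 to 19.1) under COLCA2 guide 1 and 22.7-fold (16.6 to 31.9) under COLCA2 guide 2. COLCA2 guide 2 was the highest, and the log2 ratios were 3.61 under the POU2F3 guide and 4.10 ± 0.53 (SD, n = 2) over the COLCA2 guides. The edgeR adjusted p was 0.0023 and 7.7e-04. The exon-free stretch before its start (chr10:104085958-104086130, minus strand) is shown because the gene had among the largest ratios of the family, with matches to the SOX site (opposite strand), TATAAA and CCAAT (opposite strand) in capitals.
COL17A1: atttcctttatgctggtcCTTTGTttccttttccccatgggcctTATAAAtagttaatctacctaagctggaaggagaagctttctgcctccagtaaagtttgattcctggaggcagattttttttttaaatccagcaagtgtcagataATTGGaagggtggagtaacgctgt

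The basement membrane collagens over the minimum had smaller ratios than COL2A1 or COL12A1. Of the 6 type IV genes 5 passed the minimum. None was 2-fold higher in either comparison, beside 6.73% and 5.79% of all genes, and 0 of 5 is near those shares. COL4A3 was at least 2-fold lower under the POU2F3 guide, beside 3.05% of all genes. It stood at 42.8% (30.4 to 59.6%) of the control level there, and the interval includes ratios under 2-fold. COL4A1 (chr13:110148963-110307233, minus strand) and COL4A2 (chr13:110305812-110513209, plus strand) encode the ubiquitous chains of the mesh. COL4A1 had 7244, 7436, 6814 and 4774 and COL4A2 had 14084, 12420, 11843 and 10107. All targeted libraries exceeded the control one, with log2 ratios of 0.51 under the POU2F3 guide and 0.62 ± 0.03 (SD, n = 2) over the COLCA2 guides for COL4A1 and of 0.23 under the POU2F3 guide and 0.39 ± 0.13 (SD, n = 2) over the COLCA2 guides for COL4A2. The edgeR adjusted p for COL4A1 was 0.014 under the POU2F3 guide and 0.0033 under the COLCA2 guides, and for COL4A2 it was 0.24 and 0.039. The pair points in opposite directions from start sites 126 bases apart in the RefSeq table.

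COL4A3, COL4A4 and COL4A5 encode the chains of the specialised mesh of kidney and lung. COL4A3 had 67.4, 34.1, 46.2 and 108, lower in all 3 targeted libraries and with the 2 COLCA2 guides nearly 2-fold apart. Its log2 ratios were -1.21 under the POU2F3 guide and -1.15 ± 0.68 (SD, n = 2) over the COLCA2 guides, and edgeR gave adjusted p of 0.21 and 0.15. COL4A4, 418 bases away on the opposite strand, had 275, 313, 262 and 327, with log2 ratios of -0.32 under the POU2F3 guide and -0.16 ± 0.13 (SD, n = 2) over the COLCA2 guides. COL4A5 had 634, 599, 578 and 359, above the control level in all 3 libraries, with log2 ratios of 0.69 under the POU2F3 guide and 0.78 ± 0.06 (SD, n = 2) over the COLCA2 guides and edgeR adjusted p of 0.037 and 0.012. COL4A6, its neighbour 379 bases away, stayed under the minimum, with 2.07, 25.9, 3.36 and 9.55 normalized counts and its highest value, from 22 reads, under COLCA2 guide 2.

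The type VI and multiplexin genes over the minimum differed by less than 2-fold. COL6A1 and COL6A2, chains of the beaded filaments around cells, had 3878, 3593, 4252 and 2594 and 5292, 5571, 5683 and 3281. Both were higher in every targeted library, with log2 ratios of 0.71 under the POU2F3 guide and 0.53 ± 0.08 (SD, n = 2) over the COLCA2 guides for COL6A1 and 0.79 under the POU2F3 guide and 0.73 ± 0.05 (SD, n = 2) over the COLCA2 guides for COL6A2. The edgeR adjusted p was 0.0069 and 0.012 for COL6A1, and 0.0032 and 0.0023 for COL6A2. COL6A3, the third chain of the filament, had 124, 95.3, 79.7 and 94.5 and overlapped the control level. COL15A1 had 3982, 3579, 4281 and 5699, lower in every targeted library, with log2 ratios of -0.41 under the POU2F3 guide and -0.59 ± 0.11 (SD, n = 2) over the COLCA2 guides and edgeR adjusted p of 0.07 and 0.0077. COL18A1, whose C-terminal fragment is endostatin, had 2344, 2256, 2057 and 1643, with log2 ratios of 0.32 under the POU2F3 guide and 0.48 ± 0.04 (SD, n = 2) over the COLCA2 guides and edgeR adjusted p of 0.11 and 0.018. Of its exon bases 16.4% overlap SLC19A1 on the opposite strand, so its reads are uncertain to that extent.

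The remaining members over the minimum were within 2-fold of the control level. COL7A1, the anchoring fibril below the epidermis, had 124, 103, 110.0 and 96.4. COL8A1 and COL8A2, chains of the short network of vessels and cornea, had 57, 45.9, 49.5 and 51.6 and 136, 135, 147 and 74.5, and COL8A2 was higher in all 3 libraries by log2 0.86, 0.85 and 0.97 for the COLCA2 guides and the POU2F3 guide. COL26A1 had 96.4, 90.6, 145 and 83.1, highest under the POU2F3 guide, and COL28A1 had 22.8, 36.5, 17.6 and 21, highest under COLCA2 guide 2. Of the members under the minimum, COL6A6 reached 29.4 under the POU2F3 guide and 23.8 under COLCA2 guide 1. COL23A1 reached 21.8 under the POU2F3 guide. The other 8, COL5A3, COL6A5, COL10A1, COL13A1, COL14A1, COL20A1, COL21A1 and COL25A1, stayed under 20 in every library, and COL6A5 had 0 reads in all 4.

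The family sum and the median member pointed in opposite directions. The 44 collagens summed to normalized counts of 112418 in the control library, 76669 under the POU2F3 guide, 78286 under COLCA2 guide 1 and 74871 under COLCA2 guide 2. These sums were 0.463%, 0.308%, 0.306% and 0.295% of the reads in genes, and the targeted libraries stood at 68.2%, 69.6% and 66.6% of the control sum. Without COL2A1 the sums were 39934, 55854, 58434 and 58712 in the same order, and the other 43 genes together were 1.40-fold, 1.46-fold and 1.47-fold the control level. As a share of collagen counts, in which longer transcripts weigh more, COL2A1 made up 64.5% of the family sum in the control library, 27.1% under the POU2F3 guide, 25.4% under COLCA2 guide 1 and 21.6% under COLCA2 guide 2. COL12A1 made up 0.632%, 11.8%, 12.9% and 16.4% in that order.

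Per kilobase of transcript, COL2A1 made up 61.9% of the family in the control library, 27.3% under the POU2F3 guide, and 26.3% and 22.7% under the COLCA2 guides.

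The makeup by type differed as well. Fibrillar genes held 66.2% of the family sum in the control library and 25.1 to 30.6% in the others, while FACIT genes held 7.64% and 21.3 to 25.1%. Basement membrane genes held 14.0% and 25.5 to 28.5%, type VI genes 5.32% and 11.9 to 13.1%, and multiplexins 6.53% and 7.79 to 8.27%. Per kilobase, COL2A1 was the highest member in each of the 4 libraries, with 3915, 3187, 4105 and 14294 normalized counts per kilobase, and COL9A3 was next in each, with 2473, 2451, 2766 and 3080. COL4A2 was in the third place in each, with 2169, 1913, 1824 and 1556. COL12A1 was in the 10th place in the control library and in the 6th to 8th in the others.

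**Figure D3:**
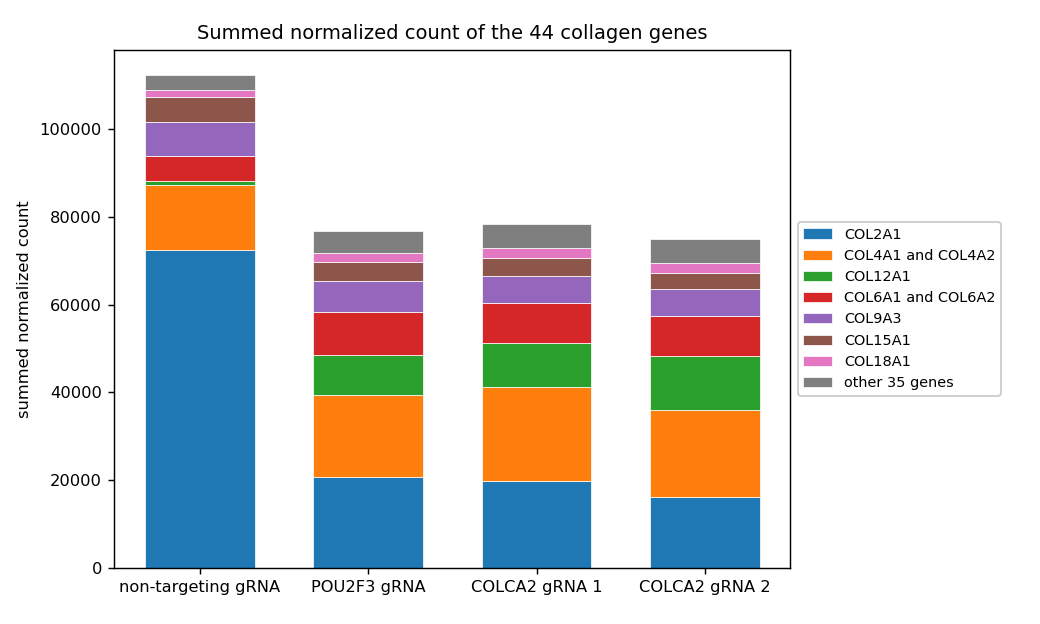
Summed normalized count of the 44 collagen genes in each library, stacked by the largest contributors. The bar of the control library is the tallest at 112418, and most of it is COL2A1, while the COL12A1 block is thin there and visible in the other 3.

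Collagens assemble from chains in fixed partnerships, so the ratio between partner chains per kilobase of transcript was followed within each library. In the type IX set the ratio of COL9A2 to COL9A1 was 16.2 (9.31 to 30.3) in the control library. It was 0.776 (0.592 to 1.011) under the POU2F3 guide, 0.979 (0.718 to 1.33) under COLCA2 guide 1 and 0.632 (0.43 to 0.913) under COLCA2 guide 2. The counting intervals of these do not overlap the first. However, COL9A1 had 14 reads in the control library and passed the minimum only through the targeted libraries. Ratios over COL9A1 therefore lean towards a larger control value by that selection. They were added to the planned type IX pair of COL9A2 and COL9A3. The ratio of COL9A3 to COL9A1 was 95.4, 91.9, 87.2 and 1097, a large excess in every library, and that of COL9A3 to COL9A2 was 97.5, 145, 112 and 67.9. The ratio of COL5A2 to COL5A1 was 1.86, 2.61, 4.01 and 6.73, with the largest excess in the control library. COL4A2 to COL4A1 was 1.98, 1.7, 1.77 and 2.16, and COL6A2 to COL6A1 was 1.67, 1.9, 1.64 and 1.55, both within a narrow range. COL6A1 to its partner COL6A3 was 79.1, 95.7, 135 and 69.6, and COL1A1 to COL1A2 was 40.0, 43.1, 64 and 87. COL4A4 to COL4A3 was 3.3, 7.41, 4.58 and 2.45, with the smallest ratio in the control library. COL4A5 to COL4A6 was 319, 24.1, 179 and 39.1, with COL4A6 on 2, 22, 4 and 10 reads.

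**Figure D4:**
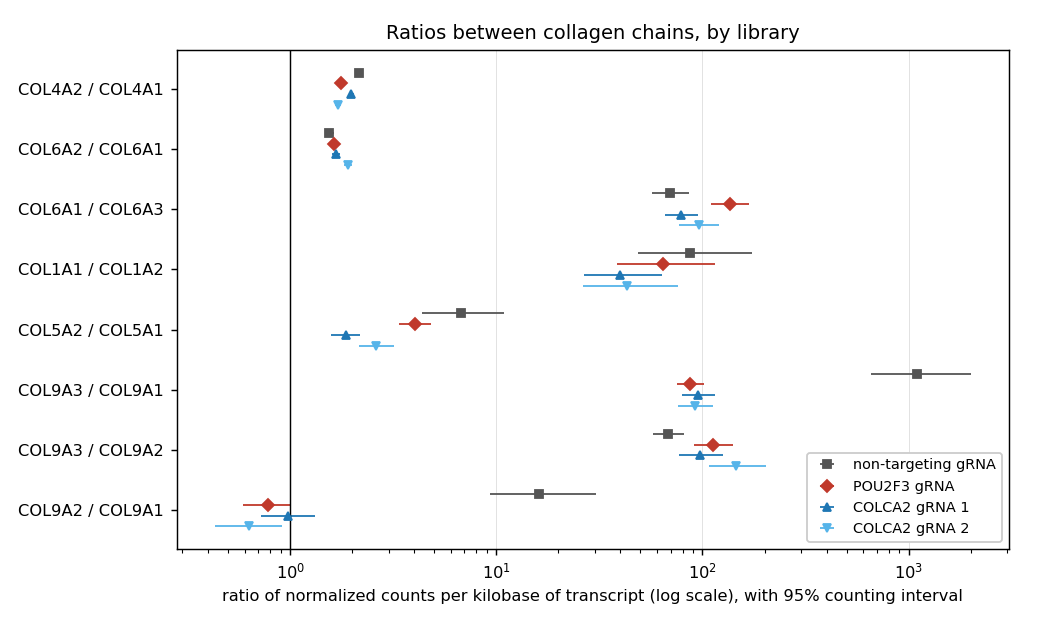
Ratio of normalized counts per kilobase between partner chains (x axis, log scale) in each library, with exact 95% counting intervals. COL9A2 over COL9A1 is 16.2 in the control library and under 1 in the other 3, while COL4A2 over COL4A1 stays between 1.70 and 2.16. COL9A1 had 14 reads in the control library and passed the minimum only through the targeted libraries.

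The enzymes and receptors that make and read collagen were described from a list of 57 genes, of which 53 passed the minimum. Under the POU2F3 guide 11 of the 53 were at least 2-fold higher, beside 6.73% of all genes, and 1 was lower, beside 3.05%. Under both COLCA2 guides 10 were higher, beside 5.79%, and 0 lower, beside 2.02%. LOXL4, MMP1, MMP13, CTSK and LUM were under 20 in the control library and so passed the minimum only by being higher elsewhere. Among the other 48 pathway genes, 6 were at least 2-fold higher in each comparison, beside 4.99% and 4.25% of all genes that reached 20 in the control library. The median log2 ratio of the 53 was 0.36 under the POU2F3 guide and 0.37 for the mean of the COLCA2 guides, beside the medians near 0 of all genes. The endoplasmic reticulum collagen chaperone SERPINH1, also called HSP47, had 6101, 6005, 6259 and 3510, higher in all 3 targeted libraries by log2 0.80, 0.77 and 0.83. None of the 8 folding and export genes was 2-fold different. FKBP14 had 758, 911, 779.8 and 706, and the export receptor MIA3 had 3447, 3091, 3254 and 3552. TMEM131, which helps procollagen secretion, had 2033, 1489, 1728 and 2355.

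Among the 14 chain-modifying genes, the prolyl 4-hydroxylase subunit P4HA3 was at least 2-fold higher in all 3 libraries, at 86.1, 76.4, 99.9 and 30.6. P3H2, a prolyl 3-hydroxylase of type IV chains, had 1347, 1143, 658 and 374 and passed 2-fold under both COLCA2 guides but not under the POU2F3 guide. The lysyl hydroxylase PLOD2 had 2501, 2559, 2553 and 3513 and P4HA1 had 787, 768, 669.8 and 794, neither 2-fold different. Of the 8 genes of propeptide cleavage, the N-proteinase ADAMTS2 had 90.2, 105, 154 and 39.2 and was at least 2-fold higher in all 3 libraries. TLL2 had 173, 169, 153 and 94.5, and the enhancer genes PCOLCE and PCOLCE2 had 497, 479.8, 573 and 659.9 and 208, 198, 175 and 244.

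Lysyl oxidases, which cross-link collagen outside the cell, differed in direction. LOXL2, which acts on basement membrane collagen IV, had 1321, 1307, 1182 and 273, at least 2-fold higher in all 3 libraries by log2 2.27, 2.25 and 2.11. LOXL4 had 128, 133, 70.5 and 2.86, the last from 3 reads, with ratios of 44.5-fold (14.9 to 219), 46.4-fold (15.5 to 228) and 24.6-fold (8.14 to 122) for COLCA2 guide 1, COLCA2 guide 2 and the POU2F3 guide. LOX, the founding member, had 7896, 9019, 8153 and 13705 and was lower in all 3 libraries by under 2-fold. LOXL3 had 236, 156, 245 and 373, lower in all 3 and by 2-fold only under COLCA2 guide 2.

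Of 10 receptors, the endocytic collagen receptor MRC2 was at least 2-fold higher in all 3 libraries, at 795, 1075, 1001 and 326. The fibrillar collagen receptor DDR2 had 359, 339.9, 532 and 173, past 2-fold under the POU2F3 guide and COLCA2 guide 1 and just under it under COLCA2 guide 2. The integrin subunit ITGA10, a receptor for cartilage collagen, had 39.4, 30.6, 31.9 and 40.1. Of the collagenases, MMP1 had 20.7, 34.1, 26.9 and 0. Set against a floor of 3 reads in the control library, its ratios were 7.24-fold, 11.9-fold and 9.38-fold. These leave out the counting error of the targeted reads. MMP13, which cuts type II collagen, had 36.3, 41.2, 27.7 and 9.55 and was at least 2-fold higher in all 3 libraries, and the lysosomal CTSK had 7.26, 111, 59.6 and 4.77, with one COLCA2 guide near the control and the other far above it. Of the fibril partners, LUM had 233, 201, 123 and 14.3 and the matrix glycoprotein SPARC had 230.2, 189, 236 and 22, both higher in all 3 libraries, while FMOD had 31.1, 58.8, 10.9 and 75.4 and was at least 2-fold lower under the POU2F3 guide and COLCA2 guide 1.

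**Figure D5:**
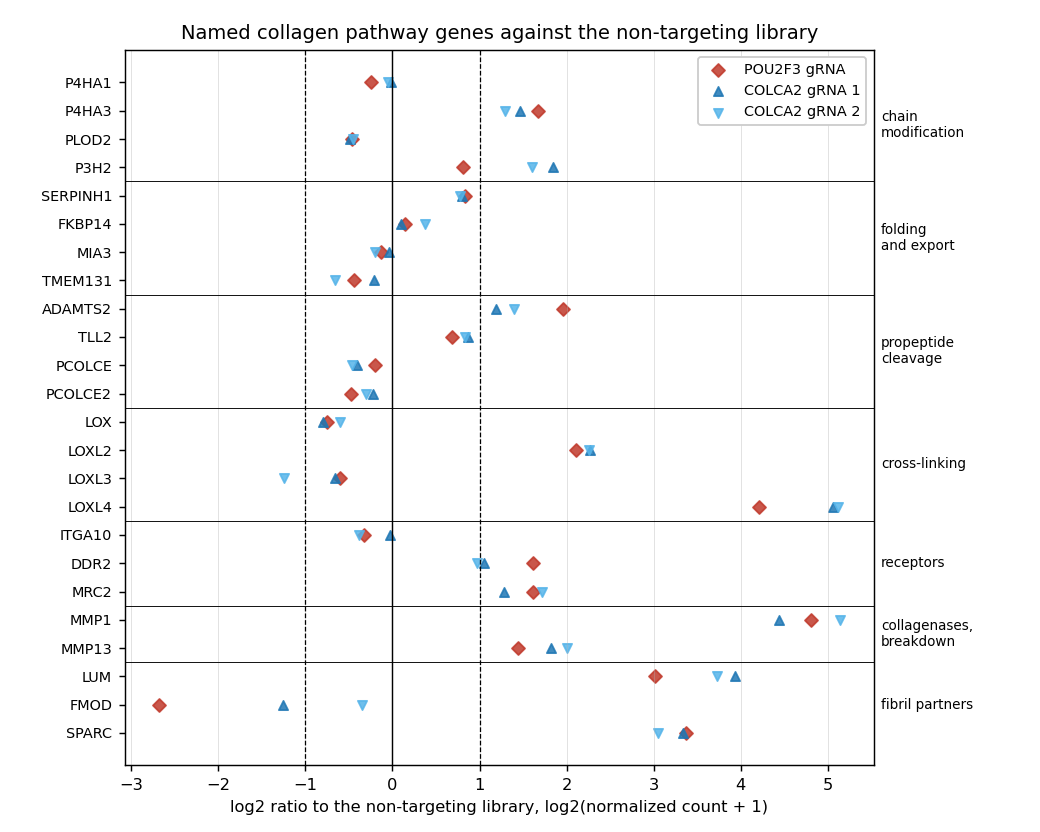
Log2 ratio to the control library on log2(normalized count + 1) for the named genes of collagen making and reading, by role, with dashed lines at 2-fold. LOXL2 lies between 2.11 and 2.27 in the 3 targeted libraries, and LOX lies between -0.80 and -0.60.

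Some markers of cells that make much collagen were also higher in the targeted libraries. Of 7 fibroblast markers 5 passed the minimum, and their summed normalized counts, all 7 included, were 1550, 1427, 1377 and 752. LUM and PDGFRB were at least 2-fold higher in both comparisons, beside 6.73% (POU2F3 guide) and 5.79% (COLCA2 guides) of all genes. LUM, at 14.3 in the control library, passed the minimum only through the targeted libraries. DCN had 34.2, 61.2, 50.4 and 35.3, PDGFRA 109.9, 81.1, 213 and 124 and THY1 968, 961, 905 and 544. TCF21 was at most 1.18, and FAP lay between 1.18 and 16.6. Of 4 smooth muscle markers 3 passed the minimum. ACTA2 had 2573, 2677, 1997 and 539 and CNN1 2030, 2078, 1246 and 140.4. Both were at least 2-fold higher in both comparisons, beside the same shares of all genes. MYH11 had 107, 114, 96.5 and 95.5, and DES was at 0 in 3 libraries. The summed smooth muscle markers were 4710, 4869, 3342 and 774. Endothelial markers summed to 44.6, 57.6, 57.1 and 72.6, with KDR at 0 in all 4. VWF, 1 of 2 over the minimum, was at least 2-fold lower in both comparisons, beside 3.05% and 2.02% of all genes. Immune markers summed to 269, 260, 212 and 165, with CD3E at 0. CD68, at 209, 199.9, 139 and 72.6, was 1 of 2 over the minimum. It was at least 2-fold higher under both COLCA2 guides, beside 5.79% of all genes. The other, LYZ, was lower in all 3 targeted libraries, with 45.6, 48.2, 61.3 and 72.6. PTPRC, under the minimum, was lower as well, with 8.29, 9.41, 8.39 and 16.2. The part of these markers in the collagen values was not tested.

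SOX9, a transcription factor known to drive COL2A1 in cartilage and also in the tuft-like list, had 17848 in the control library, 7566 under the POU2F3 guide, 8463 under COLCA2 guide 1 and 6645 under COLCA2 guide 2. It was at least 2-fold lower in all 3 targeted libraries, as COL2A1 was, at 42.4%, 47.4% and 37.2% of the control level. Its part in the COL2A1 values was not tested.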

How the data were processed

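Poly(A) RNA-seq libraries of NCI-H1048 cells were made with TRIzol extraction, DNase treatment and the NEBNext Ultra II RNA kit, per the labels' protocols. Salmon, DESeq2 and hg38 are named in the submitters' processing notes, and versions, annotation and strand setting are not given in the sources used here. Each of the 4 deposited tables gives 1 normalized count for a gene, a linear signal per the file headers. Within 0.001, 100% of the values in each deposited table were whole multiples of 1 step, so whole reads were recovered by dividing by it. The total was 21587741 to 29632382 reads per library.

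Rows of the same symbol were summed. Genes were kept where the mean over the 4 libraries reached 20. Ratios to the non-targeting library were taken on log2(normalized count + 1) and called at 2-fold. A COLCA2 call required both guides. The SD is between the 2 guides, which nothing in the labels places in separate cultures. Intervals are exact 95% binomial intervals that cover counting error alone, because each rests on counts of single libraries. The reads carry no molecular identifiers, so copies of the same molecule are not told apart. The recovered reads may be rounded Salmon estimates, for which the intervals are approximate. edgeR 4.0.16 (R 4.3.3), with 3 groups, TMM scaling and Benjamini-Hochberg adjustment over all 14940 genes, was run on the recovered reads as an alternative. It was also run on simulated counts with 1 fixed spread for every gene. That run cannot check its p-values on single libraries. Gene positions and transcript lengths came from GENCODE 29 (GRCh38), and promoter windows from RefSeq (GRCh38.p14).

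Every collagen over the minimum is named. Of the pathway genes, those named are the 2 with the largest smallest-of-3 log2 ratio in each direction within each role, and any at least 2-fold apart the same way in all 3 libraries. CTSK was named outside that rule after its values were seen, as were SOX9 as a collagen regulator and the marker genes singled out. The members and lists were chosen with earlier results of these data known. Alternatives were other minimums, pseudocounts, scalings and fold thresholds, each row on its own and leaving out each COLCA2 guide.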

Additional observations from a re-analysis of the deposited data

Results flagged for a closer look

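COL28A1 and COL6A3 were flagged because the POU2F3 library and both COLCA2 libraries lay on opposite sides of the control library. For COL28A1, a chain with von Willebrand-type domains, the log2 ratio under the POU2F3 guide minus the mean of the COLCA2 guides was -0.68, from normalized counts of 22.8, 36.5, 17.6 and 21 for COLCA2 guide 1, COLCA2 guide 2, the POU2F3 guide and the control. For COL6A3 that difference was -0.44, from 124, 95.3, 79.7 and 94.5 in the same order. The edgeR test of the POU2F3 guide against the COLCA2 guides gave adjusted p of 0.6 for COL28A1 and 0.59 for COL6A3, past the threshold in neither, and neither gene was 2-fold apart from the control library.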

How the results depend on the processing

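Of 64 collagen log2 ratios (32 genes in both comparisons), none of the 320 recomputed values reversed with another pseudocount, scaling or row treatment. That outcome was largely fixed beforehand. A pseudocount cannot change the sign of a ratio between single libraries, scaling moved ratios by at most 0.069, and only COL11A2 had more than 1 row. With each row on its own, however, COL11A2 moved from -0.055 to -3.04 for the mean of the COLCA2 guides. The row used there held 0 reads under COLCA2 guide 1. The 24 ratios at 2-fold or more, for the POU2F3 guide or the mean of the COLCA2 guides, stayed there, while 1 call that needs both COLCA2 guides, COL19A1, was lost with a pseudocount of 10 and with equal totals. Of 48 pathway ratios, none of 240 reversed and 3 called values came under 2-fold, 2 of them with a pseudocount of 10. The same limits of pseudocount and scaling hold for the reversals there. Scaling to equal totals moved the median of all genes by -0.034 under the POU2F3 guide and -0.069 under the COLCA2 guides, and TMM by 0.011 and 0.00093. The summed collagen count had a log2 ratio of -0.55 under the POU2F3 guide and of -0.55 under the COLCA2 guides. Without COL2A1, a choice made after seeing the data, these became 0.48 and 0.55. With equal totals the COLCA2 value was -0.62, and with 1 guide left out it ranged from -0.59 to -0.52.

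The collagen median under the POU2F3 guide was 0.36, and became 0.32 without a minimum, 0.60 with a minimum of 100 and 0.32 with equal totals. For the COLCA2 guides it was 0.46, and became 0.50 with a minimum of 100, 0.43 with a pseudocount of 10, 0.39 with equal totals, and 0.46 to 0.50 with 1 guide left out. The cause of these shifts was not tested, beyond the fewer genes a higher minimum leaves.

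Collagens at least 2-fold higher numbered 9 under the POU2F3 guide, and 12 without a minimum and 6 with a minimum of 100. They numbered 14 at 1.5-fold, 6 at 4-fold and 11 by edgeR. Under the COLCA2 guides they numbered 9, and 11 without a minimum, 6 with a minimum of 100 and 8 with a pseudocount of 10. The number was 8 with equal totals, 14 at 1.5-fold, 7 at 4-fold and 14 by edgeR. Those lower under the POU2F3 guide numbered 2, and 5 without a minimum, 1 with a minimum of 100, 0 at 4-fold and 1 by edgeR. Those lower under the COLCA2 guides numbered 2, and 1 with a minimum of 100, 4 at 1.5-fold, 0 at 4-fold and 4 by edgeR, and 2 to 4 with 1 guide left out, the 4 being without COLCA2 guide 1. Collagens apart between the POU2F3 guide and both COLCA2 guides numbered 1, and 0 with a minimum of 100, a pseudocount of 10, a 4-fold threshold or edgeR, 3 at 1.5-fold, and 1 to 3 with 1 guide left out, the 3 being without COLCA2 guide 1. The cause was not tested.

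No paired analysis was possible because the replicate numbers name guides of the COLCA2 group alone. A single control library serves every ratio, so its own deviation cannot be separated from the effect of the guides. Low control counts, such as 5 reads for COL22A1 and 7 for COL16A1, limit those ratios to their counting intervals.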

Other observations

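Other genes of cartilage matrix were listed after the collagens were seen, and 7 of the 14 passed the minimum. Of these 7, 1 (SOX9) was at least 2-fold lower in both comparisons, beside 3.05% and 2.02% of all genes. Under the POU2F3 guide 2 (HAPLN1 and MATN3) were at least 2-fold higher, beside 6.73%, and under both COLCA2 guides 1 (HAPLN1), beside 5.79%. MATN3 was under 20 in the control library, at 18.1. COMP, SNORC, SOX6 and WWP2 were in none of these calls. The genes under the minimum were too low to compare with COL2A1. Among them ACAN, the main cartilage proteoglycan, had at most 10.1 normalized counts in any library, with CNMD at 0 in all 4. HAPLN1, the link protein of cartilage proteoglycan, was higher where COL2A1 was lower, with 114, 299.9, 251 and 38.2 for COLCA2 guide 1, COLCA2 guide 2, the POU2F3 guide and the control. SOX6 had 657, 555, 907 and 749.6, and SOX5 at most 9.33.

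Partners of COL17A1 in the hemidesmosome and its laminin ligand were listed the same way, and all 7 passed the minimum. Under the POU2F3 guide 1 was at least 2-fold higher, beside 6.73% of all genes, and under both COLCA2 guides 2 were, beside 5.79%. LAMB3 had 2474, 2753, 1151 and 137, at least 2-fold higher in all 3 targeted libraries. LAMA3, a partner chain of LAMB3, had 1382, 1287, 1706 and 1784, and ITGB4, the hemidesmosome integrin, had 3355, 3434, 2475 and 1650, past 2-fold under both COLCA2 guides and not under the POU2F3 guide. DST, the plakin of the hemidesmosome, had 3057, 2657, 2836 and 3533.

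Of 11 other proteins with collagen-like domains 7 passed the minimum, and COLEC11, a soluble lectin, was lower in all 3 targeted libraries, with 62.2, 14.1, 31.1 and 84. COLQ, the tail of acetylcholinesterase, had 8.29, 28.2, 57.9 and 17.2, with the COLCA2 guides on either side of the control level. The collagen pseudogenes COL6A4P1, COL6A4P2 and COL11A2P1 had at most 11.8 normalized counts in any library.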
